A study of Homo sapiens with 51 samples.

Results

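The matriptase and prostasin axis is represented by 8 of the 25421 gene symbols in the deposited count table: ST14, SPINT1, SPINT2, PRSS8, PRSS22, TMPRSS4, TMPRSS2 and HGFAC. They were taken by symbol, as every row that carries one of these names, and all 8 had a row. RNA was measured in 51 libraries of 5 human pancreatic ductal adenocarcinoma cell lines by PLATE-seq, a pooled method that reads the 3' ends of polyadenylated transcripts. HPAFII and PATU8988S were sequenced only untreated. KP4, PANC1 and PK45H had 5 groups each: untreated, mCherry, OVOL2, mCherry + M2rtTA and OVOL2 + M2rtTA, with 3 libraries in each of the 17 groups. mCherry, a fluorescent protein, was the control open reading frame, and M2rtTA is a transactivator that raises expression from doxycycline-inducible promoters. All transduced groups, the mCherry groups included, received lentivirus at a multiplicity of infection of 2 with 8 µg/ml polybrene, then 2.5 µg/ml puromycin and 0.6 µg/ml doxycycline, and were cultured for 6 days in all. The promoter that drives the open reading frame is not given in the sources used here. The labels call the libraries triplicates without saying that they came from separate cultures, so p-values measure only the spread between these libraries, which may be technical.

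Matriptase, the product of ST14, is a type II transmembrane serine protease of epithelial cells that activates other proteases and growth factors at the cell surface. Prostasin, the product of PRSS8, is anchored to the membrane by a lipid tail, and matriptase and prostasin can each promote the activation of the other. The Kunitz-type inhibitors HAI-1 (SPINT1) and HAI-2 (SPINT2) are membrane proteins that bind and block matriptase and prostasin, and both also assist matriptase on its way to the surface. PRSS22 encodes tryptase epsilon, a secreted serine protease of airway epithelium, and TMPRSS4 and TMPRSS2 encode type II transmembrane serine proteases of epithelia. HGFAC encodes a plasma protease made mainly by the liver that activates hepatocyte growth factor, and HAI-1 was first described as its inhibitor. OVOL2 is a zinc finger transcription factor of epithelial cells that represses mesenchymal genes such as ZEB1.

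RefSeq promoter windows were matched for SPINT1 and HGFAC only. The stretches before the start sites of SPINT1 are printed here because, of this pair, SPINT1 was the gene with enough counts to be tested. RefSeq (GRCh38.p14) lists a pair of start sites for this gene, which lies on the plus strand, and only the bases outside annotated untranslated regions are given. Capitals mark CAGGTG, the E-box letters that ZEB1 and SNAI1 can bind, searched on both strands together with the reverse complement CACCTG. The lines give chr15:40843798-40844017 for the first start site and chr15:40844279-40844476 for the second.
SPINT1 first start site: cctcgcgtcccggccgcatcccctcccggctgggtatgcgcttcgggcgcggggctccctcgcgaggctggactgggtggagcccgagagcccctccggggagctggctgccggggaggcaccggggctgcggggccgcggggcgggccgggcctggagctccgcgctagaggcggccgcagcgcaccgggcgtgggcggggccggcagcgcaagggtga
SPINT1 second start site: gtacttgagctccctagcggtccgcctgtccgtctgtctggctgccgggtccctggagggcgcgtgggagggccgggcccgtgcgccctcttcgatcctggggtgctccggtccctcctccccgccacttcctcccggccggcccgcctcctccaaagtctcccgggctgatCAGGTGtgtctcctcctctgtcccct
No CAGGTG or CACCTG lay in the 300-base window around the first start site, and 1 CAGGTG lay 26 bases before the second. The HGFAC window held 2 matches, CAGGTG 124 and CACCTG 25 bases before its start site. These letters were present in 20.6% of the 35116 windows of 300 bases (250 before and 50 after a start site) in the same table. The letters CCGTTA, the core of the OVOL motif, and their complement TAACGG were in none of the SPINT1 and HGFAC windows and in 3.07% of all windows. A match is a description of the sequence only. In GENCODE 29 (GRCh38) the genes lie at chr11:130159562-130210376 (ST14, plus strand), chr15:40844018-40858207 (SPINT1, plus), chr19:38244035-38292614 (SPINT2, plus) and chr16:31131433-31135762 (PRSS8, minus). The others lie at chr16:2852727-2858170 (PRSS22, minus), chr11:118077012-118121890 (TMPRSS4, plus), chr21:41464551-41531116 (TMPRSS2, minus) and chr4:3441887-3449495 (HGFAC, plus). SPINT1, SPINT2, PRSS8, PRSS22 and TMPRSS4 each overlap a gene on the opposite strand, and since the strand of the counting is not given in the sources used here, reads of such pairs cannot be told apart. SPINT2 also overlaps AC011479.1, a protein-coding gene on the same strand, where the strand would not separate the reads.

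Library totals ran from 1165399 to 7490556 counts, and 15653 to 18817 symbols had at least 1 count. The smallest total was HPAFII replicate 2, which stood apart. For the 7 members detected there, it held 0.175 (PRSS8) to 0.681 (SPINT2) times the mean of the other HPAFII libraries. Values without it are given beside the fitted differences of members and the percentages of the reference level that use HPAFII. The correlations over group means, and the counts and shares of genes called, include it. The OVOL2 transcript was not higher in the groups labelled OVOL2 without M2rtTA, where the log2 fold change over lines was -0.09 (SE 0.46, edgeR adjusted p = 0.926), and it was higher with M2rtTA, by 2.15 (SE 0.44, adjusted p = 0.000210). Within lines the OVOL2 row with M2rtTA passed the test in KP4 (3.08, edgeR adjusted p = 0.0272) and PK45H (1.98, 0.0135) but not in PANC1 (1.40, 0.244), and its counts in KP4 OVOL2 + M2rtTA were 13, 62 and 9, most of them in 1 library. Whether the lentiviral OVOL2 carries the 3' end that PLATE-seq counts is not given in the sources used here, so this row cannot check the labels of the arm without M2rtTA, and its groups are named by their labels throughout. The 5 epithelial markers (EPCAM, KRT8, KRT18, KRT19, CDH1) had counts in every group. Their summed level in CPM (counts scaled to library size) overlapped between mCherry and OVOL2 in PANC1, at 2015 to 2470 and 2172 to 2397 without M2rtTA and 2074 to 2318 and 1677 to 2189 with it. In KP4 it was higher in the OVOL2 libraries, with 876 to 968 against 587 to 620 in mCherry without M2rtTA and 723 to 910 against 451 to 469 with it. In PK45H it was also higher, with 2468 to 2548 against 1036 to 1089 and 2432 to 2485 against 928 to 1158. The summed level of 4 mesenchymal markers (VIM, ZEB1, FN1, CDH2) was lower in the OVOL2 groups, for example 642 to 741 CPM against 2646 to 3007 in the mCherry libraries of PANC1. A sum over 6 fibroblast markers was higher in OVOL2 + M2rtTA, 44.9 to 65.1 against 24.3 to 31.6 CPM in mCherry + M2rtTA of PANC1, and LUM, one of these markers, was at 0 in the former group. The part of these markers in the results below was not tested. In bulk RNA, fewer cells expressing a gene and less RNA per cell cannot be told apart.

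SPINT1, the gene of HAI-1, rose in KP4, PANC1 and PK45H under OVOL2, with and without M2rtTA, by about the same amount in both arms. In PANC1, SPINT1 measured 4.98, 11.3 and 6.76 CPM in the mCherry libraries and 57.2, 52.5 and 77.8 in the libraries labelled OVOL2. With M2rtTA the PANC1 values were 7.33, 6.23 and 8.27 CPM for mCherry and 55.4, 58.9 and 61.0 for OVOL2. Every OVOL2 library lay far above every mCherry library, with no overlap in either arm. In KP4, SPINT1 went from 7.81, 6.90 and 7.09 CPM in mCherry to 26.6, 20.4 and 21.5 in OVOL2, and with M2rtTA from 5.74, 5.80 and 12.5 to 33.2, 23.7 and 16.6. In PK45H it went from 3.91, 13.7 and 6.17 to 26.7, 42.3 and 32.0 CPM, and with M2rtTA from 10.9, 10.5 and 8.69 to 41.6, 47.5 and 37.9. The OVOL2 and mCherry libraries did not overlap in these lines either, and the PK45H mCherry libraries differed most among themselves in relative terms. Averaged over the lines, the log2 fold change of SPINT1 was 2.25 (SE 0.19, edgeR quasi-likelihood test with Benjamini-Hochberg adjustment over all genes, adjusted p = 6.55e-11) without M2rtTA. With M2rtTA it was 2.24 (SE 0.19, edgeR adjusted p = 1.52e-11). Of all 14943 genes tested in that fit, 18.1% passed an adjusted p of 0.05 without M2rtTA (9.32% higher) and 32.9% with it (15.7% higher, 17.3% lower). Fitted within a line, the rise was 2.98 and 3.00 in PANC1, 2.07 and 2.13 in PK45H, and 1.64 and 1.60 in KP4 without and with M2rtTA, and all 6 passed the test. The test of a difference between lines did not pass for SPINT1 (edgeR adjusted p = 0.198 and 0.114), at an unadjusted p of 0.0170 and 0.0145.

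**Figure D1:**
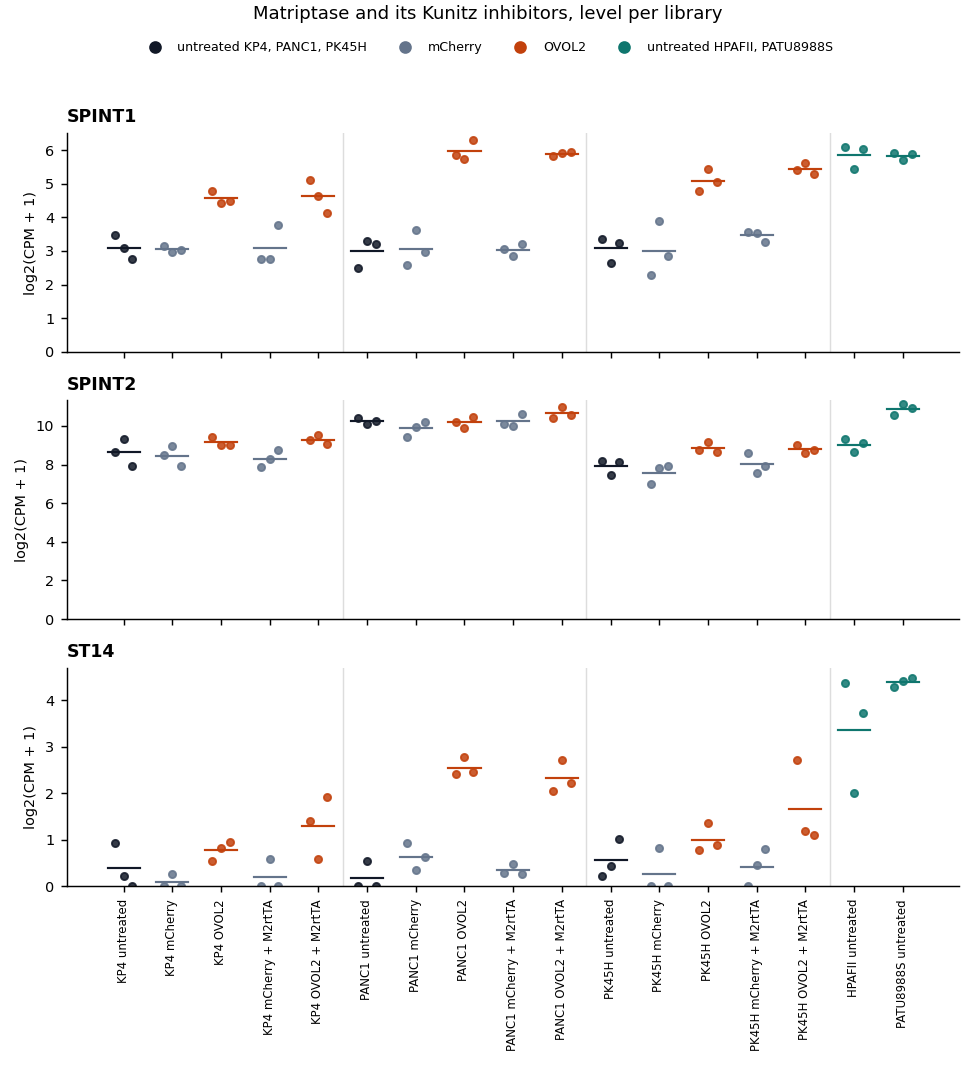
SPINT1, SPINT2 and ST14 in every library, as log2(CPM + 1), by line and group, with short lines at the mean of each group. SPINT1 points of the OVOL2 groups lie above those of the mCherry groups in KP4, PANC1 and PK45H, while ST14 separates most clearly in PANC1.

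ST14, the matriptase gene, was barely counted in the untreated and mCherry libraries of the transduced lines and rose with OVOL2, most clearly in PANC1. The PANC1 libraries held 4, 2 and 3 ST14 counts in mCherry and 16, 25 and 22 in OVOL2. These are 0.905, 0.267 and 0.548 CPM for mCherry and 4.33, 5.86 and 4.53 for OVOL2. With M2rtTA the PANC1 counts were 1, 2 and 1 in mCherry and 13, 37 and 15 in OVOL2. The OVOL2 libraries of PANC1 were above all mCherry libraries in both arms. In KP4 the ST14 counts were 0, 1 and 0 in mCherry and 3, 4 and 6 in OVOL2, and with M2rtTA 0, 2 and 0 in mCherry and 10, 3 and 11 in OVOL2. In PK45H they were 0, 2 and 0 in mCherry and 3, 9 and 4 in OVOL2, and with M2rtTA 0, 2 and 5 in mCherry and 28, 5 and 5 in OVOL2. The groups overlapped in KP4 with M2rtTA and in PK45H without it, and 1 library, PK45H OVOL2 + M2rtTA replicate 1, held 28 of the 38 counts of its group. Over the lines the fitted log2 fold change of ST14 was 2.84 (SE 0.64, edgeR adjusted p = 0.00139) without M2rtTA and 3.29 (SE 0.55, edgeR adjusted p = 1.35e-05) with it, or 2.91 without that PK45H library. ST14 passed the filter on low counts only through the OVOL2 groups of PANC1, so its test is not counted as support for the set. Within PANC1 the fitted changes were 3.13 (edgeR adjusted p = 0.00454) and 3.79 (0.00106) without and with M2rtTA. Against mCherry groups this low, the ratio of summed counts per total is a plainer measure: 9.50 (95% exact interval 4.70 to 21.7) and 15.8 (5.88 to 59.7) in PANC1. The same ratios were 11.1 (1.67 to 472) and 10.3 (2.55 to 89.7) in KP4, where the mCherry groups held 1 and 2 counts, and 6.04 (1.42 to 54.1) and 7.66 (3.38 to 20.3) in PK45H. All 6 intervals lie above 1, they cover counting error only, and they compare these libraries, with mCherry alone as the base, rather than conditions. Untreated libraries held 5, 1 and 0 ST14 counts in KP4, 1, 2 and 7 in PK45H and 0, 2 and 0 in PANC1. Untreated KP4 (up to 0.911 CPM) and PK45H (up to 1.02) overlapped OVOL2 without M2rtTA (from 0.463 and 0.721). In PANC1 all OVOL2 libraries lay above the untreated ones. OVOL2 against untreated was not tested. ST14 was too low for the filter in KP4 and PK45H. Fitted there without a filter, it did not pass the edgeR test. The adjusted p without and with M2rtTA was 0.325 and 0.105 in KP4, and 0.410 and 0.0953 in PK45H. Within lines, only the rise in PANC1 passed by edgeR, and DESeq2 gave it no adjusted p without M2rtTA.

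SPINT2, the gene of HAI-2, was counted in every library and rose less than SPINT1. In PK45H it measured 128, 229 and 238 CPM in mCherry and 437, 568 and 406 in OVOL2, and in KP4 358, 489.6 and 245 in mCherry and 696, 522 and 514 in OVOL2. With M2rtTA the values in KP4 were 238, 313 and 426 in mCherry and 622, 742 and 532 in OVOL2, and in PK45H 392, 187 and 242 in mCherry and 519, 392 and 428 in OVOL2. The OVOL2 libraries were above all mCherry libraries in KP4 in both arms and in PK45H without M2rtTA, while with M2rtTA the lowest PK45H OVOL2 library lay just under the highest mCherry library. In PANC1 the groups overlapped, at 682, 1002 and 1191 CPM in mCherry and 1173, 955 and 1402 in OVOL2, and with M2rtTA at 1106, 1005 and 1578 in mCherry and 1347, 2032 and 1536 in OVOL2. Over the lines SPINT2 rose by 0.72 on the log2 scale without M2rtTA (SE 0.17, edgeR adjusted p = 0.00271) and by 0.71 with it (SE 0.17, adjusted p = 0.00154). Within lines, the rise in PK45H without M2rtTA (1.17, edgeR adjusted p = 0.0217) and in KP4 with M2rtTA (0.96, 0.0454) passed the test. Leaving out PK45H mCherry replicate 1 or OVOL2 replicate 2 ends the PK45H call (edgeR adjusted p = 0.0835 and 0.0803), and the KP4 call is lost without any library of its groups (adjusted p up to 0.145) except mCherry + M2rtTA replicate 3. Changes of SPINT2 in PANC1 were 0.29 and 0.41, with edgeR adjusted p of 0.534 and 0.244, in KP4 without M2rtTA 0.65 (0.267) and in PK45H with it 0.77 (0.0857), none of which passed. The opposite-strand neighbour of SPINT2, PPP1R14A, held 577 to 912 counts in the PANC1 mCherry libraries, up to 19.1% of the SPINT2 count, and 142 to 232 in the PANC1 OVOL2 libraries.

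PRSS22, the tryptase epsilon gene, was the protease whose response differed between lines. In PANC1 it measured 9.50, 10.5 and 6.22 CPM in mCherry and 29.5, 40.3 and 43.8 in OVOL2, and with M2rtTA 12.9, 7.59 and 12.8 in mCherry and 62.4, 73.6 and 70.2 in OVOL2. In KP4 the values were 9.93, 6.29 and 9.14 in mCherry and 17.1, 16.5 and 10.1 in OVOL2, and with M2rtTA 6.18, 4.54 and 5.20 in mCherry and 14.1, 20.7 and 11.6 in OVOL2. In PK45H they were 4.16, 4.19 and 1.37 in mCherry and 3.13, 2.42 and 2.52 in OVOL2, and with M2rtTA 4.71, 2.25 and 3.83 in mCherry and 5.60, 3.30 and 6.71 in OVOL2. OVOL2 libraries were all above the mCherry libraries in KP4 and PANC1, and the groups overlapped in PK45H. Over the lines PRSS22 rose by 0.88 on the log2 scale without M2rtTA (SE 0.20, edgeR adjusted p = 0.00180) and by 1.58 with it (SE 0.19, adjusted p = 3.70e-08). Within lines the rise was 2.10 and 2.63 in PANC1 and passed the test in both arms. In KP4 it passed with M2rtTA (1.55, edgeR adjusted p = 0.00215), and without it the value was 0.78 (0.129). In PK45H the values were -0.31 and 0.59, and neither passed. The test of a difference between lines passed for PRSS22 in both arms (edgeR adjusted p = 0.0131 without and 0.0121 with M2rtTA), as it did for 2.74% and 7.56% of all genes. PRSS22 was the only member of the 7 tested for which it did. An unadjusted edgeR p under 0.05 was also seen for SPINT1 in both arms and for TMPRSS2 with M2rtTA (0.0265). The call is lost in both arms when all libraries are thinned to the smallest total, and without PK45H mCherry replicate 1 in the arm without M2rtTA. In the arm with M2rtTA it is lost without PANC1 mCherry + M2rtTA replicate 2 or PK45H mCherry + M2rtTA replicate 1.

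TMPRSS4 was lower in OVOL2 than in mCherry in the groups without M2rtTA, by a small amount. In PK45H it measured 4.64, 12.6 and 5.03 CPM in mCherry and 3.61, 2.42 and 4.41 in OVOL2, and in PANC1 5.66, 8.00 and 7.31 in mCherry and 4.06, 3.99 and 4.94 in OVOL2. The OVOL2 libraries were below all mCherry libraries in these lines, and in KP4 the groups overlapped at 3.09, 8.52 and 8.91 in mCherry and 6.48, 6.44 and 5.22 in OVOL2. The untreated libraries overlapped these OVOL2 libraries in each line. They measured 5.97, 3.64 and 4.83 CPM in PK45H, 4.01, 5.42 and 6.82 in PANC1, and 9.11, 6.07 and 7.63 in KP4. With M2rtTA no line had its OVOL2 libraries below those of mCherry. The KP4 OVOL2 libraries were then above all mCherry libraries, at 6.81, 7.17 and 7.81 CPM against 4.42, 6.05 and 5.97. In PANC1 and PK45H the groups with M2rtTA overlapped. Over the lines TMPRSS4 fell by 0.64 on the log2 scale without M2rtTA (SE 0.21, edgeR adjusted p = 0.0283), and 8.81% of all genes were called lower there. With M2rtTA the change was 0.24 (edgeR adjusted p = 0.404), and within no single line did TMPRSS4 pass the test in either arm. The fall is not called when libraries are thinned to the smallest total (edgeR adjusted p = 0.126), nor without any 1 of 6 libraries (KP4 mCherry replicates 2 and 3, PANC1 mCherry replicate 2, PANC1 OVOL2 replicate 2, PK45H mCherry replicate 2 and PK45H OVOL2 replicate 2).

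**Figure D2:**
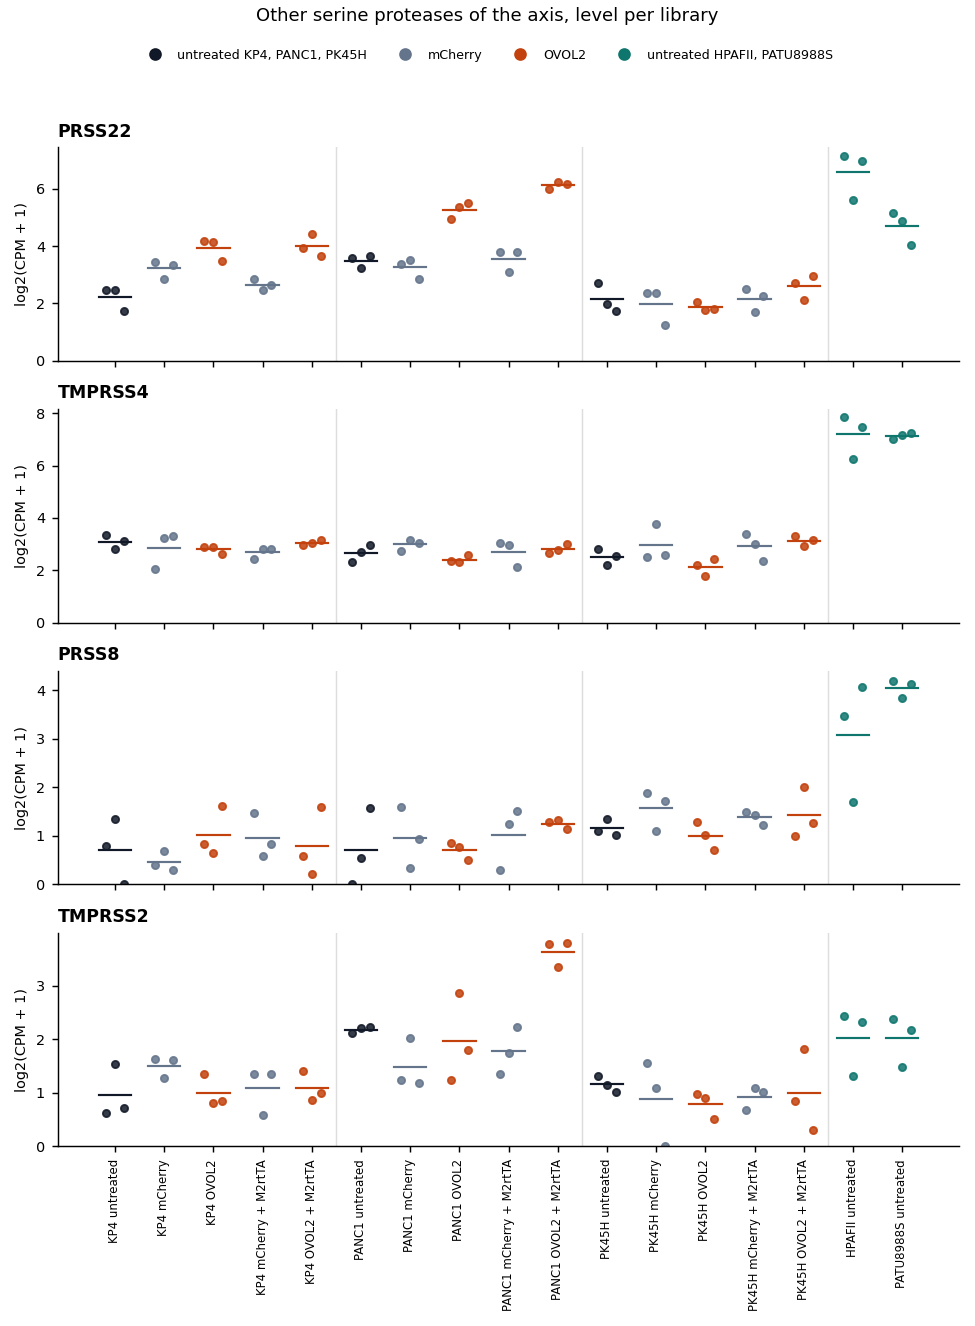
PRSS22, TMPRSS4, PRSS8 and TMPRSS2 in every library, as log2(CPM + 1), by line and group, with short lines at the mean of each group. PRSS22 rises in the OVOL2 groups of PANC1 and KP4, TMPRSS2 stands out in PANC1 OVOL2 + M2rtTA, and TMPRSS4 is far higher in HPAFII and PATU8988S than in any transduced group.

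TMPRSS2 rose in PANC1 with M2rtTA. There it measured 1.56, 2.34 and 3.72 CPM in mCherry + M2rtTA and 12.7, 9.22 and 12.9 in OVOL2 + M2rtTA, against 1.36, 3.07 and 1.28 in mCherry and 1.35, 6.33 and 2.47 in OVOL2 without M2rtTA. The OVOL2 + M2rtTA libraries of PANC1 were all above the others, and PANC1 OVOL2 replicate 2 was the highest of its group. The log2 change in PANC1 was 2.17 (SE 0.47, edgeR adjusted p = 0.00639) with M2rtTA and 0.77 (0.457) without. In KP4 and PK45H, TMPRSS2 ran from 0 to 2.54 CPM in the transduced groups, too low for the filter. Over the lines the changes of TMPRSS2 were -0.16 and 0.84 without and with M2rtTA, and neither passed (edgeR adjusted p = 0.822 and 0.0817). The second passes without PK45H OVOL2 + M2rtTA replicate 3 (edgeR adjusted p = 0.0353).

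PRSS8, the prostasin gene, did not change detectably with OVOL2. Its levels in the transduced groups ran from 0.167 to 3.05 CPM, and the OVOL2 and mCherry libraries overlapped in every line and arm. In PK45H, where its counts were highest among the transduced lines, the values were 2.69, 1.14 and 2.29 in mCherry and 1.44, 1.04 and 0.631 in OVOL2. Over the lines the changes were -0.06 (SE 0.59) and 0.05 (SE 0.48), with edgeR adjusted p of 0.967 and 0.957. With standard errors of this size the fits cannot tell such changes from 0. The ratio of summed PRSS8 counts per total, without M2rtTA, was 2.99 in KP4 (95% exact interval 1.17 to 9.05, counting error only) and 0.472 in PK45H (0.230 to 0.936), in opposite directions. HGFAC had 11 counts in 6 of the 51 libraries, at most 2 in a library, so every group was at or under 3 counts per library and no ratio is given.

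**Figure D3:**
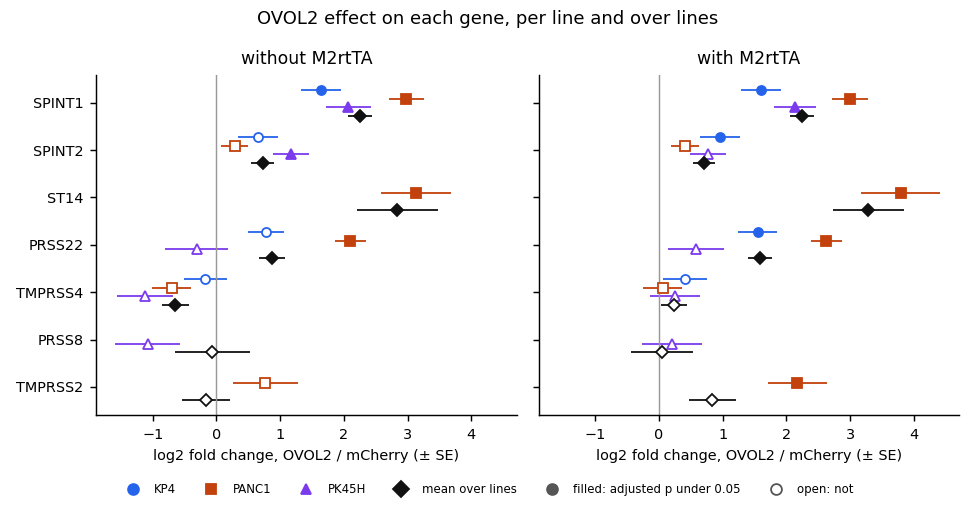
Log2 fold changes of OVOL2 against mCherry (horizontal axis) with standard errors, for each member within KP4, PANC1 and PK45H and averaged over them, without and with M2rtTA. Filled symbols have an edgeR adjusted p under 0.05, SPINT1 is filled throughout, and PRSS22 spans the widest range among members tested in all 3 lines.

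Leaving ST14 aside, over the lines 3 of the other 6 members tested rose and 1 fell without M2rtTA. With M2rtTA 3 rose and none fell. Of all genes, 18.1% and 32.9% were called without and with M2rtTA, and 9.32% and 15.7% were called higher. The members were chosen with earlier results of these data known, so these shares are no test of the set. Within lines, again leaving ST14 aside, 5 of 14 tests passed without M2rtTA and 7 of 14 with it, all toward higher levels, where 6.82% (KP4), 5.08% (PANC1) and 8.39% (PK45H) of genes were called without M2rtTA and 22.4%, 13.9% and 15.9% with it. The genes called higher made up 3.26%, 2.12% and 3.58% without M2rtTA, and 9.91%, 5.76% and 7.45% with it. The same genes recur over the lines in these member counts. SPINT1 passed in every line in both arms, and the other passes came from SPINT2, PRSS22 and, with M2rtTA, TMPRSS2. Each arm had its own mCherry libraries. Of the members, 0 of 7 passed the edgeR test of a difference between the arms, which 7.72% of all genes passed. At an unadjusted p under 0.05 there were 2, PRSS22 and TMPRSS4, with changes larger by 0.71 and 0.88 on the log2 scale with M2rtTA (adjusted p = 0.117 and 0.0566), and DESeq2 called 1, TMPRSS4. The control comparisons called no member. In mCherry against untreated libraries, 0 of 15 edgeR tests of members passed, where 0%, 0.598% and 0.00736% of all genes were called in KP4, PANC1 and PK45H. One test had an unadjusted p under 0.05, PRSS22 in KP4 (1.15, adjusted p = 0.499), with 4.55, 4.51 and 2.33 CPM in untreated against 9.93, 6.29 and 9.14 in mCherry libraries, and DESeq2 called none. Adding M2rtTA to mCherry gave 0 of 15 member tests past the edgeR threshold, 0 at an unadjusted p under 0.05 and 0 by DESeq2, where 0%, 0% and 0.0294% of all genes were called.

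Without any treatment, 7 members were higher in HPAFII and PATU8988S than in KP4, PANC1 and PK45H when each set of lines was averaged, although 2 of them, SPINT2 and TMPRSS2, were not higher than in PANC1 in every case. ST14 measured 19.6, 3.01 and 12.3 CPM in HPAFII and 18.4, 20.3 and 21.3 in PATU8988S, and 0 to 1.02 in the untreated libraries of the other 3 lines. PRSS8 measured 10.1, 2.26 and 15.7 and 17.2, 13.3 and 16.5 CPM in the former, and 0 to 1.99 in the latter. In both cases the groups did not overlap, and HPAFII replicate 2 was the lowest of the HPAFII libraries. That library held only 4 counts of ST14 and 3 of PRSS8, and its PRSS8 level was close to PANC1 replicate 3 (1.99 CPM, 7 counts). TMPRSS4 measured 229, 75.2 and 176 CPM in HPAFII and 127, 144 and 152 in PATU8988S, against 3.64 to 9.11 elsewhere. SPINT1 measured 66.8, 42.1 and 64.7 and 59.3, 51.1 and 57.9, against 4.67 to 10.02. By group means all of these genes were several-fold higher in the lines HPAFII and PATU8988S. None of their libraries reached down to the other lines, though for PRSS8 the gap was a matter of few counts. SPINT2 and TMPRSS2 did overlap. TMPRSS2 measured 3.31 ± 1.58 CPM (mean ± SD, n = 3) in HPAFII and 3.20 ± 1.25 in PATU8988S, against 3.55 ± 0.187 in PANC1, the highest of these means though within the spread of the libraries, 1.03 ± 0.762 in KP4 and 1.24 ± 0.235 in PK45H. Untreated PANC1 held more SPINT2 than HPAFII (1364, 1114 and 1226 against 639, 405 and 548 CPM). In the fit of the 15 untreated libraries the log2 differences were 4.73 for TMPRSS4 (SE 0.22), 3.35 for PRSS22 (SE 0.26), 2.96 for SPINT1 (SE 0.18), 1.03 for SPINT2 (SE 0.18) and 1.04 for TMPRSS2 (SE 0.32, edgeR adjusted p = 0.0207). All 5 passed, where 34.8% of all genes did (17.4% higher). ST14 (5.54, SE 0.47) and PRSS8 (3.80, SE 0.45) also passed, but they reached the test only through the lines in which they are high. Without HPAFII replicate 2 the differences were larger: 4.88 for TMPRSS4, 3.51 for PRSS22, 3.04 for SPINT1, 1.10 for SPINT2, 1.15 for TMPRSS2, 5.71 for ST14 and 3.97 for PRSS8. The TMPRSS2 call is lost without HPAFII replicate 1 (edgeR adjusted p = 0.0683), HPAFII replicate 3 (0.0572) or PATU8988S replicate 1 (0.0709).

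The lines also differed among themselves in a few members. PATU8988S held more SPINT2 than HPAFII (1529, 2221 and 1981 against 639, 405 and 548 CPM, a log2 difference of 1.80, edgeR adjusted p = 0.000623). It held less PRSS22 (34.9, 28.3 and 15.4 against 141, 48.1 and 124 CPM, -2.04, adjusted p = 0.00215), in a comparison with 20.2% of genes called. Neither pair of groups overlapped, and without HPAFII replicate 2 the differences were 1.67 and -2.35. Among the transduced lines, untreated PANC1 had the highest SPINT2, against 408, 629 and 243 CPM in KP4 and 289, 178 and 278 in PK45H. PANC1 exceeded KP4 in SPINT2, PRSS22 and TMPRSS2 (21.9% of genes called) with log2 differences of KP4 from PANC1 of -1.60, -1.49 and -1.79. It exceeded PK45H in the same members (25.6% called), by 2.37, 1.56 and 1.55. KP4 and PK45H did not differ in any member by the edgeR test, with 1 of 7 at an unadjusted p under 0.05 (SPINT2, log2 0.77, adjusted p = 0.0661) and 1 called by DESeq2, where 23.5% of genes were called. Some of these calls rest on single libraries. The TMPRSS2 difference of PANC1 from PK45H is lost without any of their 6 libraries, and that from KP4 without KP4 replicates 1 or 3 or PANC1 replicate 3. The PRSS22 difference from KP4 is lost without KP4 replicates 2 or 3 or PANC1 replicates 1 or 3, and that from PK45H without PANC1 replicates 1 or 3 or PK45H replicates 2 or 3.

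Set against the mean of the untreated HPAFII and PATU8988S groups, the members reached very different shares of that level under OVOL2. SPINT1 in PANC1 went from 13.5% in mCherry to 109.7% in OVOL2, and from 12.8% to 103% with M2rtTA. In PK45H it reached 59.1% and 74.3%, and in KP4 40.1% and 43.0%. The level of SPINT1 in PANC1 OVOL2 was near that of the lines that were not transduced. ST14 reached 31.0% and 26.1% in PANC1, 6.57% and 16.9% in PK45H, and 4.57% and 10.4% in KP4. With HPAFII replicate 2 left out of the reference, the SPINT1 shares without and with M2rtTA were 103% and 95.9% in PANC1, 55.2% and 69.5% in PK45H, and 37.5% and 40.2% in KP4. Those of ST14 were 27.3% and 22.9% in PANC1, 5.78% and 14.9% in PK45H, and 4.02% and 9.15% in KP4. PRSS22 in PANC1 went from 13.4% in mCherry to 58.2% in OVOL2, and from 17.04% to 106% with M2rtTA. In KP4 it went from 12.98% to 22.4%, and from 8.15% to 23.7% with M2rtTA. The PK45H shares were 4.97% and 4.13%, and 5.52% and 7.99% with M2rtTA, and these groups overlapped. The PRSS22 reference averages unequal lines, 104 CPM in HPAFII and 26.2 in PATU8988S. The 68.7 CPM of PANC1 OVOL2 + M2rtTA lay between them. Without HPAFII replicate 2, the OVOL2 shares were 47.9% and 86.9% in PANC1, 18.4% and 19.5% in KP4, and 3.40% and 6.58% in PK45H. TMPRSS4 stayed between 2.31% and 5.19% in all 6 OVOL2 groups, or 2.02% and 4.55% without that library. TMPRSS2 has a reference of only 3.25 CPM. In PANC1 its share was 109% untreated, 78.0% in mCherry + M2rtTA and 357% in OVOL2 + M2rtTA, or 95.8%, 68.5% and 314% when HPAFII replicate 2 is left out of the reference. SPINT2 in PANC1 went from 78.5% in mCherry to 96.4% in OVOL2, and from 101% to 134% with M2rtTA. Its reference also averages unequal lines, 531 CPM in HPAFII and 1911 in PATU8988S. PRSS8 in PANC1 went from 8.56% to 5.13%, and from 9.17% to 11.1% with M2rtTA. These PANC1 groups of SPINT2 and PRSS8 overlapped in both arms. The SPINT2 changes did not pass, and PRSS8 was too low for the filter in PANC1. Without HPAFII replicate 2 the shares in OVOL2 + M2rtTA and mCherry + M2rtTA were 131% and 98.2% for SPINT2, and 9.71% and 8.03% for PRSS8.

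**Figure D4:**
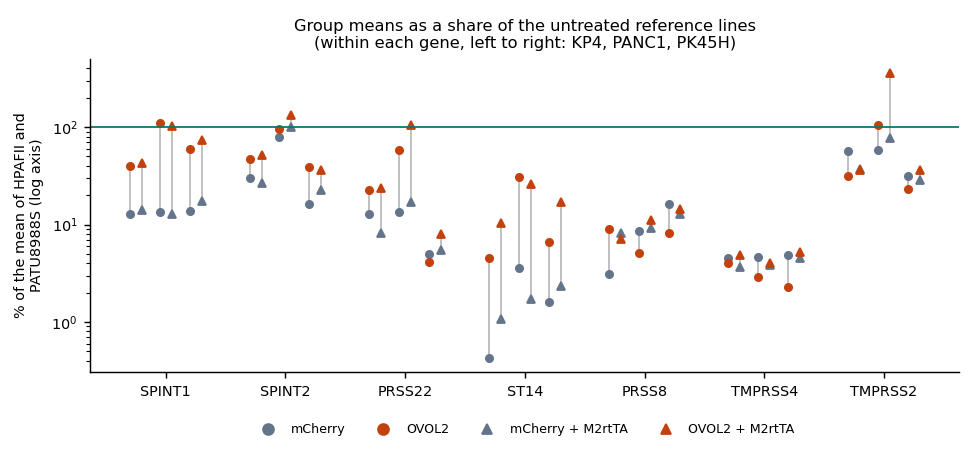
Group means of each member in the transduced groups as a percentage of the mean of untreated HPAFII and PATU8988S (log axis), by line within each gene. SPINT1 in PANC1 reaches 109.7% under OVOL2, TMPRSS4 stays under 6% in every group, and grey lines join each mCherry group with its OVOL2 group.

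Across the 17 group means, ST14 and SPINT1 varied together (Pearson r = 0.90), as did PRSS8 and TMPRSS4 (0.90), PRSS22 and TMPRSS2 (0.80), and SPINT2 and TMPRSS2 (0.75). These values describe group means that share the 5 cell lines. In a search of 12689 genes, the symbols with the pattern nearest to that of each member over the group means were EPCAM (r = 0.94), DSP (0.91) and SPINT1 (0.90) for ST14, and EPCAM (0.95), CRB3 (0.94) and BSPRY (0.91) for SPINT1. For PRSS8 they were SLC40A1 (0.96), TSPAN8 (0.96) and SAMD5 (0.95), and for TMPRSS4 they were EPS8L3 (0.98), KLK11 (0.98) and CEACAM6 (0.98). PRSS22 was nearest to MAGIX (0.92), SPPL3 (0.90) and CBLC (0.90), SPINT2 to ELP5 (0.93), FBXO22 (0.93) and COX6A1 (0.92), and TMPRSS2 to ALPG (0.90), CCNJL (0.87) and RAB10 (0.87). Only 4 of these 21 genes were also among the 3 nearest by Spearman's rank correlation, so which genes are named depends on the measure. For TMPRSS4, KLK11 and CEACAM6 had Spearman values of 0.51 and 0.48 and ranked 263.5 and 390.5. PRSS8 and TMPRSS4 both had their highest group means in HPAFII and PATU8988S.

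The genes around the axis were read from 3 lists: other membrane-anchored proteases, other inhibitors of trypsin-like proteases, and substrates and receptors. Of 19 listed proteases only 4 were counted highly enough to be tested over the lines (HPN, CORIN, PRSS27, TPSG1), and none passed the edgeR test or an unadjusted p under 0.05 in either arm, and DESeq2 called 0. Of 19 inhibitors reported here 12 were tested, and 4 rose without M2rtTA and 3 with it, beside 18.1% and 32.9% of all genes called in either direction. SERPINF2, the gene of alpha-2-antiplasmin, rose in both arms, by 2.26 and 2.67 on the log2 scale. In PK45H it measured 2.44, 1.90 and 1.37 CPM in mCherry and 15.9, 12.6 and 17.2 in OVOL2, with no overlap. TFPI2, a Kunitz-type inhibitor, also rose in both (0.86 and 0.61). SERPINB5, the gene of maspin, and APP, whose protein carries a Kunitz domain in some isoforms, rose without M2rtTA (1.13 and 0.33), and the values with M2rtTA were 0.63 (edgeR adjusted p = 0.191) and -0.14 (0.403). The 6 members other than ST14 had a median change of 0.33 and 0.77 without and with M2rtTA, the inhibitors 0.26 and 0.16, and all genes tested 0.00 and 0.03.

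Among 22 substrates and receptors reported here 17 were tested over the lines, with 4 higher and 3 lower without M2rtTA and 5 higher and 3 lower with it, beside 18.1% and 32.9% of all genes called, and the median change was 0.13 and 0.09. EPCAM, which encodes an adhesion protein that matriptase can cleave, rose by 2.19 and 2.26 without and with M2rtTA. CLDN7, a claudin that binds EPCAM, rose by 1.69 and 1.55. CDCP1, a surface protein cleaved by serine proteases, rose without M2rtTA (0.52), and with it the value was 0.09 (edgeR adjusted p = 0.361). MST1R, the receptor of macrophage-stimulating protein, rose by 0.68 and 0.77. In PK45H, MST1R measured 4.40, 2.67 and 7.08 CPM in mCherry and 10.3, 16.4 and 18.1 in OVOL2, without overlap, while the groups overlapped in KP4 and PANC1. F2R, the thrombin receptor PAR1, fell by 1.10 and 1.34, and PLAU, the urokinase that matriptase can activate, by 1.74 and 1.38. In PANC1, PLAU measured 101, 106 and 143 CPM in mCherry and 24.9, 8.91 and 13.8 in OVOL2, and these groups did not overlap. MET, the receptor of hepatocyte growth factor, fell with M2rtTA, by 0.86, and its change without it was -0.14 (edgeR adjusted p = 0.547). PLAT, the tissue plasminogen activator, fell without M2rtTA, by 0.84, and its change with M2rtTA was 0.19 (0.596). Untreated HPAFII and PATU8988S differed from the other 3 lines in 10 of 12 inhibitors tested (8 higher, 2 lower) and in 10 of 17 substrates and receptors (6 higher, 4 lower), beside 34.8% of all genes.

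**Figure D5:**
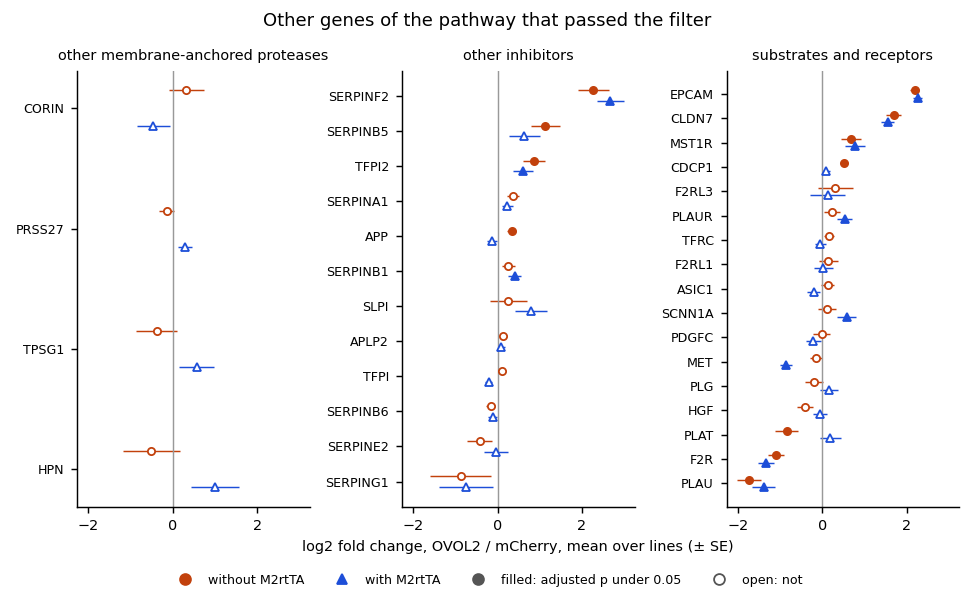
Log2 fold changes of OVOL2 against mCherry averaged over the lines, with standard errors, for the tested genes of 3 lists around the axis, without and with M2rtTA. EPCAM, CLDN7 and SERPINF2 lie furthest to the higher side and PLAU and F2R to the lower side among those past the test in both arms.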

How the data were processed

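Raw whole-number counts per gene symbol were deposited by the authors for 51 libraries, and the submitters' processing notes name kallisto 0.44.0 and GRCh38 without saying how they were used, so the counts may be rounded estimates. Alignment settings and the handling of molecular identifiers are not given in the sources used here. Genes were filtered with filterByExpr (edgeR 4.0.16, R 4.3.3), scaled by TMM (trimmed mean of M values) and tested with two-sided edgeR quasi-likelihood tests. The fits were 45 libraries of the 3 transduced lines, 15 libraries of each such line, and 15 untreated libraries. Adjusted p-values (Benjamini-Hochberg, over all genes of a fit) under 0.05 were called. Levels are CPM, the counts scaled to library size with TMM over all 51 libraries, and 3 counts were taken as the floor. Changes are log2 fold changes as edgeR fits them. All 8 members and up to 4 genes per direction of 3 lists, those with the smallest p, were named. Of the lists, 2 genes are not reported here, and the lists' counts and medians leave them out. The members and lists were chosen with earlier results of these data known. Scripts were tested on simulated data. DESeq2 1.42.0, other scaling, other filters, thinning to the smallest total, a replicate block and leaving out each library were alternatives. Gene overlaps are from GENCODE 29 (GRCh38) and promoter sequences from RefSeq (GRCh38.p14), where SPINT1 and HGFAC were the 2 members matched.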

Additional observations from a re-analysis of the deposited data

Results flagged for a closer look

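The OVOL2 effect on PRSS22 differed between KP4, PANC1 and PK45H by edgeR's test of the difference itself, with an adjusted p of 0.0131 without M2rtTA and 0.0121 with it. PRSS22 was higher under OVOL2 in PANC1 (log2 2.10 and 2.63) in both arms and in KP4 with M2rtTA (1.55). The KP4 value without M2rtTA was 0.78, which did not pass (edgeR adjusted p = 0.129), and the PK45H values were -0.31 and 0.59, which did not pass either. The call of a difference is lost in both arms when all libraries are thinned to the smallest total. It is also lost without PK45H mCherry replicate 1 in the arm without M2rtTA, and without PANC1 mCherry + M2rtTA replicate 2 or PK45H mCherry + M2rtTA replicate 1 in the arm with it. The cause was not tested.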

How the results depend on the processing

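Of the tests of single members, 507 refits under other settings lost 7 calls, gained 5 and changed no sign, and 693 refits without 1 library lost 33, gained 7 and changed 21 signs. These counts leave out refits that gave a member no adjusted p, and all tests of a difference between lines. Pairs of untreated lines enter them only for members called in the main fit. Under DESeq2, 2 members were called in PANC1 without M2rtTA, against 3 by edgeR, because ST14 had no adjusted p there. Thinning all libraries to the smallest total lowered the members called over the lines without M2rtTA from 5 to 3 (ST14 was no longer tested and TMPRSS4 was lost) and those that differ between lines from 1 to 0 in both arms, and it lowered the genes called to 1528 from 2710, to 3196 from 4923 and to 3145 from 4794 in the untreated comparison. Members whose effect differs with M2rtTA went from 0 to 1 (TMPRSS4) with a mean count of at least 10 and under DESeq2 (adjusted p = 0.0455 and 0.0364). Leaving out single libraries gave 4 to 5 members over the lines without M2rtTA and 4 to 5 with it, ST14 included. All genes called were then 2367 to 2547 and 4592 to 4792. The ST14 call came through the filter as said above, so these member counts are no support for the set. The same refits gave 0 to 1 members differing between lines and 0 to 2 for the M2rtTA difference. They gave 2 to 5 of 6 calls between the untreated transduced lines (3 without PANC1 replicate 1 and 2 without replicate 3). By Spearman's correlation 4 of the 21 similar genes remained. Other calls lost were SPINT2 in KP4 with M2rtTA under robust dispersion (edgeR adjusted p = 0.0758), PRSS22 between KP4 and PANC1 when thinned (0.111), TMPRSS2 between PANC1 and PK45H without a filter (0.0545) and TMPRSS4 over the lines with only the compared groups (0.0752). Calls gained were SPINT2 in PK45H with M2rtTA under DESeq2 (0.0462) and TMPRSS2 over the lines with M2rtTA under DESeq2 (0.0453) and thinned (0.0362).

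Signs that changed when 1 library was left out belonged to changes that were not called. The values ran from -0.32 to 0.21 for PRSS8 over the lines without M2rtTA, from -0.36 to 0.24 with it, and from -0.39 to 0.51 in PK45H with it. TMPRSS2 ran from -0.43 to 0.21 over the lines and from -0.00948 to 1.35 in PANC1, both without M2rtTA. TMPRSS4 ran from -0.57 to 0.0721 in KP4 without M2rtTA, from -0.21 to 0.27 in PANC1 with it and from -0.0220 to 0.52 in PK45H with it. Same-numbered libraries did not pair: their mean correlation was -0.007 in KP4, 0.039 in PANC1 and -0.032 in PK45H. With the replicate block 4 members, ST14 included, were called over the lines without M2rtTA (edgeR gave TMPRSS4 an adjusted p of 0.0509, not called). With M2rtTA 4 were called, again with ST14, and the SPINT2 call in KP4 with M2rtTA was lost (0.0515). Depth limits ST14, PRSS8, TMPRSS2 and HGFAC, whose group means in the transduced lines are often within a few counts of the floor of 3.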

Other observations

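PRSS1, the gene of cationic trypsinogen, is a serine protease outside the axis that was read here as an acinar marker. In PK45H it had 0, 0 and 0 counts in the mCherry libraries and 22, 43 and 29 in the libraries labelled OVOL2. With M2rtTA the counts were 1, 0 and 1 and 29, 23 and 17, so the groups did not overlap in either arm. No KP4 or PANC1 library held more than 4 PRSS1 counts, while untreated PATU8988S held 13, 23 and 13. The remaining acinar markers CPA1, CELA3A and CTRB1 were near 0 in PK45H, and PRSS1 has near-identical copies among which the counting could have split reads, so the source of these counts is uncertain. The gene was singled out after its values were seen.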
